A study of Mus musculus with 8 samples.

Results

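The genes described here encode 8 enzymes of sterol synthesis: Hmgcs1, Idi1, Fdps, Fdft1, Sqle, Lss, Cyp51 and Msmo1. They were chosen by gene symbol, as 8 of the 12393 genes measured on 8 Affymetrix 3′ expression arrays, and all 8 had a signal above background. A probe set is a group of short probes that reports a transcript. The 8 genes had 20 probe sets annotated to their symbol alone, and each gene is given by its brightest probe set unless stated otherwise. Levels are log2 intensity, so a difference of 1 is a doubling.

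The 3 groups of blood-forming cells, all labelled C57/BL6 and 12 weeks old, were sorted from mouse bone marrow and then sorted again. LSK cells (3 arrays) lack lineage markers and carry Sca1 and Kit, and came from wild-type animals. Leukaemia-initiating cells (LICs) had the LSK phenotype plus GFP, the mark of the retrovirus, and were taken 14 days after transplantation in a retroviral mouse model of chronic myeloid leukaemia. They were wild type (WT LICs, 3 arrays) or labelled as knockout for Ezh2, the methyltransferase of Polycomb repressive complex 2 (Ezh2 KO LICs, 2 arrays). The LICs of both genotypes thus shared retroviral infection, transplantation and leukaemia, and no transplantation is given for the LSK donors. The sources used here do not give how Ezh2 was deleted, what the virus carried besides its mark, or whether animals were pooled. The labels call the repeats biological but do not say how the animals were divided among them.

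Sterols are built from acetyl units in a long chain of reactions. HMG-CoA synthase (Hmgcs1) feeds the mevalonate pathway, which ends in the isoprenoid building blocks that the isomerase Idi1 interconverts and that farnesyl diphosphate synthase (Fdps) joins. Farnesyl diphosphate is the branch point: prenylation of proteins, dolichol and ubiquinone draw on it, while squalene synthase (Fdft1) commits it to sterols. Squalene epoxidase (Sqle) and lanosterol synthase (Lss) close the sterol ring, and Cyp51 and Msmo1 remove methyl groups from lanosterol on the way to cholesterol. When sterol in the endoplasmic reticulum is low, the SREBP2 transcription factor, encoded by Srebf2, is cleaved and raises most genes of this chain together. Dividing cells need sterol for new membrane. Liver X receptors act in the other direction: oxidised sterols activate them, and they raise genes of sterol export.

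Since these genes are known to be controlled together through their promoters, the bases before the starts of Lss and Idi1, both of which changed, are shown from RefSeq's promoter table (build GRCm38.p6). The table held 5 of the 8 members: Lss, Idi1, Hmgcs1, Cyp51 and Msmo1. Hmgcs1, chosen after its motifs were seen, is shown beside them. All 3 genes lie on the plus strand, and each sequence reads 5′ to 3′ and ends before the first annotated base of the gene: Lss (shortened to 210 bases, up to the outermost annotated start) at chr10:76531355-76531564, Idi1 at chr13:8885356-8885605 and Hmgcs1 at chr13:119690101-119690350. Capitals mark matches, on either strand, to TCACNCCAC (the core of the classical sterol regulatory element that SREBP binds), CCAAT (the box bound by NF-Y) and GGGCGG (the GC box bound by Sp1).
Lss: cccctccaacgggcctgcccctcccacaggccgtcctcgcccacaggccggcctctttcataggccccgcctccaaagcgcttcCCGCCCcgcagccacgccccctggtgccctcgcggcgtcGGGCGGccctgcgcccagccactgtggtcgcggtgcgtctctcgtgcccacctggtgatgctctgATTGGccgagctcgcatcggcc
Idi1: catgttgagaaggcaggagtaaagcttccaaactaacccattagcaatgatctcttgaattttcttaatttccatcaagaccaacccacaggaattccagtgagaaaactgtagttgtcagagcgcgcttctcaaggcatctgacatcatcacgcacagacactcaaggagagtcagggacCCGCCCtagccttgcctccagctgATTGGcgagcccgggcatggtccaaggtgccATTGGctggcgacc
Hmgcs1: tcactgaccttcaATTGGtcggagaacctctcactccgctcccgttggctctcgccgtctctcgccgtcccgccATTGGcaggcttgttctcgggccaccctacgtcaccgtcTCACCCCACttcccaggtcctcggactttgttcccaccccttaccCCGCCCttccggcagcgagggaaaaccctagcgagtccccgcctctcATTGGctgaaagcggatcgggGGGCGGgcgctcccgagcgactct

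In the 250 bases before the table's starts, all 5 members found there held both a CCAAT and a GGGCGG match. A CCAAT match stood in 33.8% and a GGGCGG match in 32.7% of the 32851 promoter windows of the table, at the same length. The sterol regulatory core was found in Hmgcs1 alone among the 5, on the strand of the gene at -137 to -129 counted from the start, and in 1.05% of all windows. No match of a motif overlapped a match of another. A match describes these letters only, and its absence from a window says only that these letters are not there.

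The arrays differed in ways that bear on every comparison. Ezh2 itself was at 10.77, 10.95 and 11.07 in LSK cells, 11.33, 11.44 and 11.26 in WT LICs and 8.94 and 9.55 in Ezh2 KO LICs. Its signal was thus lower on the knockout arrays, as labelled, but still above background (4.01). The source of the remaining signal was not tested. Of 6 progenitor genes listed, 5 were measured, none of them under background in any group. Kit, a gene of the gate, had a mean of 10.95 in LSK cells, 9.77 in WT LICs and 10.17 in Ezh2 KO LICs. The Y-linked Eif2s3y lay between 1.29 and 1.63 in LSK cells and between 9.21 and 9.80 in the LICs, so this sex-linked signal and leukaemia cannot be told apart in comparisons with LSK cells. Xist, the RNA of the inactive X chromosome, lay between 12.45 and 12.69 in LSK cells and was at 10.69 and 11.18 in Ezh2 KO LICs. Both Ezh2 KO arrays and WT LIC replicates 1 and 2 thus carried Xist and Y-linked RNA together. WT LIC replicate 3 stood apart from the other WT LIC arrays, with Xist at 4.35 against 10.68 and 11.06, and Dntt at 12.14 against 9.89 and 9.58. No batch is given in the sources used here. Fewer cells of a type and less RNA per cell cannot be told apart in these sorted bulk samples.

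WT LICs had more RNA than LSK cells for part of the sterol synthesis chain. Lss, Idi1 and Fdps rose (limma, Benjamini-Hochberg adjusted over all genes), by 3.55-fold, 2.16-fold and 2.07-fold, and the other 5 members did not pass. All 8 members had a higher mean in WT LICs, and on each of them the 3 WT LIC arrays lay above the 3 LSK arrays. At an unadjusted p under 0.05, 7 of the 8 were higher. Of all 12393 genes, 1.27% were called higher and 2.15% lower, 9.33% were higher and 11.2% lower at an unadjusted p under 0.05, and 13.5% had WT LIC arrays wholly above LSK arrays. The median difference of the members was 0.71, against 0.02 over all genes. Of the called genes 37.0% were higher, or 54.2% with each array centred on its median, which moved the median over all genes to 0.13 and turned no member's direction here. The members were chosen with such results known, so these counts describe them and do not support the direction.

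**Figure D1:**
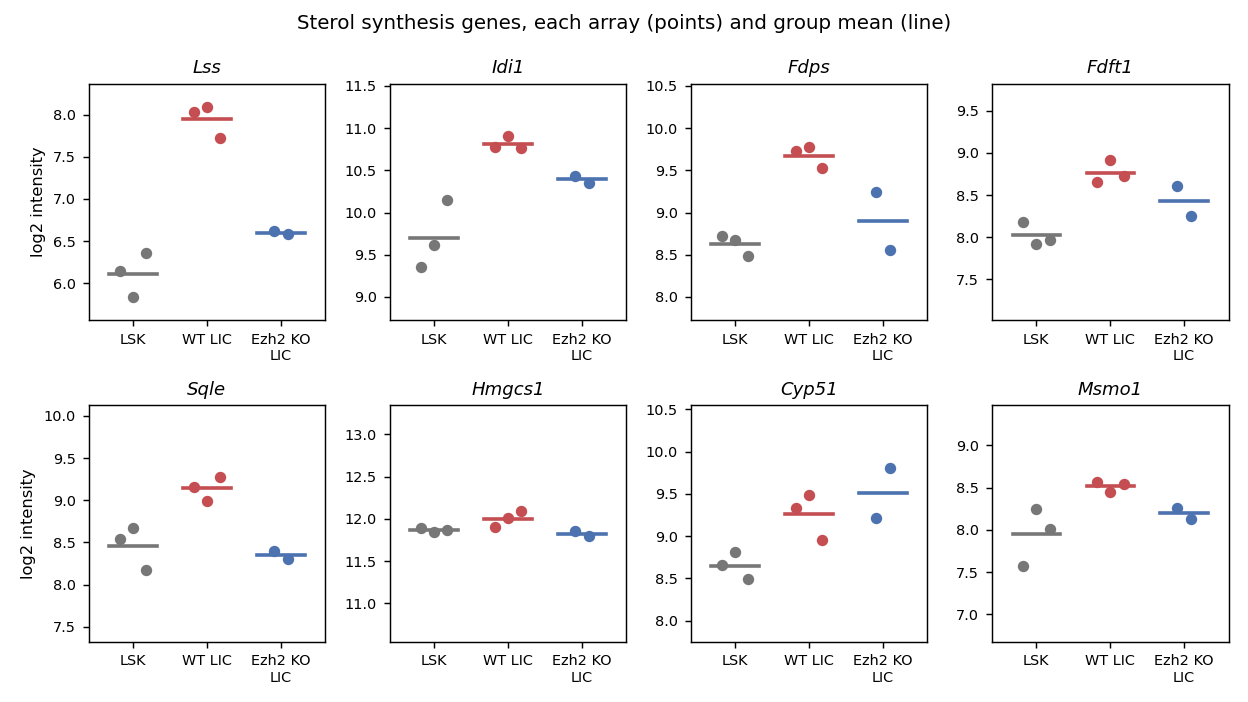
Log2 intensity of the 8 sterol synthesis genes (brightest probe set) on each array, with points for arrays and lines for group means. Every panel spans 2.8 log2 units. The WT LIC points lie above the LSK points in each panel, and Lss in Ezh2 KO LICs lies between 6.58 and 6.62, well under its WT LIC arrays.

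At the head of the chain, Hmgcs1 was nearly level. It stood at 11.89, 11.85 and 11.86 in LSK cells and at 11.90, 12.01 and 12.09 in WT LICs. The lowest WT LIC array was barely above the highest LSK array. The difference was 0.13 (SE 0.12, 95% interval -0.15 to 0.42, adjusted p = 0.586).

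Idi1 and Fdps, which make and join the isoprenoid units, were among the risers. Idi1 was at 9.35, 9.61 and 10.15 in LSK cells and at 10.77, 10.90 and 10.76 in WT LICs. The LSK arrays were spread more widely than the WT LIC arrays, and LSK replicate 3 came closest to the LICs. Idi1 rose 1.11 (SE 0.21, adjusted p = 0.0366). Fdps was at 8.72, 8.67 and 8.48 in LSK cells and at 9.72, 9.77 and 9.52 in WT LICs, with a clear gap between the groups. It rose 1.05 (SE 0.20, adjusted p = 0.0366). Both calls were close to the threshold. Idi1 lost its call without any 1 array except LSK replicate 3: its adjusted p became 0.0853 when LSK replicate 1 was dropped and 0.097 when LSK replicate 2 was. It was 0.106, 0.114 or 0.0526 when WT LIC replicate 1, 2 or 3 was dropped, and 0.0628 when either or both Ezh2 KO LIC arrays were. Fdps lost its call without LSK replicate 1, 2 or 3 (0.087, 0.0908 and 0.112) and without WT LIC replicate 1 or 2 (0.114 and 0.116).

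Fdft1, the enzyme that commits farnesyl diphosphate to sterols, was at 8.18, 7.92 and 7.97 in LSK cells and at 8.65, 8.92 and 8.73 in WT LICs. The groups did not overlap, and the difference of 0.74 (SE 0.16, 95% interval 0.37 to 1.12) just missed the threshold (adjusted p = 0.0526). It passed with dim genes left out, after median centring or quantile normalization, with array weights, and with the mean of its probe sets above background (adjusted p = 0.0251 to 0.0474). Sqle, the next enzyme and a known rate-limiting step, was at 8.54, 8.67 and 8.17 in LSK cells and at 9.16, 8.99 and 9.28 in WT LICs. Its difference of 0.68 (SE 0.17, 95% interval 0.28 to 1.08) did not pass (adjusted p = 0.0772).

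Lss, which folds epoxysqualene into lanosterol, changed most among the members. It was at 6.15, 5.85 and 6.36 in LSK cells and at 8.02, 8.09 and 7.72 in WT LICs. The gap between the groups exceeded the spread within each of them. Lss rose 1.83 (SE 0.18, 95% interval 1.41 to 2.24, adjusted p = 0.00369) and kept its call with any 1 array left out.

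The lanosterol demethylation genes had smaller differences. Cyp51 was at 8.66, 8.81 and 8.49 in LSK cells and at 9.33, 9.49 and 8.96 in WT LICs, a difference of 0.61 (SE 0.22, 95% interval 0.11 to 1.11, adjusted p = 0.17). WT LIC replicate 3 was its lowest LIC array. Msmo1 was at 7.58, 8.25 and 8.01 in LSK cells and at 8.57, 8.45 and 8.54 in WT LICs, a difference of 0.57 (SE 0.19, 95% interval 0.14 to 1.01, adjusted p = 0.145). The LSK arrays of Msmo1 were spread widely while its WT LIC arrays lay close together.

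Markers of dividing cells moved with this comparison. Of 12 such genes on the list, 11 were measured and 3 of them rose, Plk1, Cdc20 and Nuf2, while none fell. Their summed intensity ranged from 9453 to 10156 in LSK cells and from 14880 to 16321 in WT LICs, and none of them was at background in either group. Of 6 genes of antibody-secreting cells, all measured, Jchain and Igk fell and none rose. Their summed intensity was 9185 to 12449 in LSK cells and 1224 to 1505 in WT LICs, where Igk was under background. Of 6 megakaryocyte genes, all measured, Pf4, Gp9 and Treml1 fell and none rose, with a summed intensity of 1231 to 1979 in LSK cells and 330.3 to 602 in WT LICs. Of the 5 measured progenitor genes, Kit fell and none rose, and their summed intensity was 11253 to 11983 in LSK cells and 7182 to 8343 in WT LICs. The part of any of these in the sterol differences was not tested.

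Ezh2 KO LICs had less Lss RNA than WT LICs. Lss fell 2.54-fold, and it was the only member of the 8 to pass in limma. At an unadjusted p under 0.05, 3 members were lower (Lss, Sqle and Fdps). Of all 12393 genes, 0.0484% (6 genes) were called lower and 0.589% higher, and 4.97% were lower and 6.16% higher at an unadjusted p under 0.05. The mean was lower in Ezh2 KO LICs for 7 members, each with both knockout arrays under the 3 WT LIC arrays, and higher for Cyp51, whose arrays overlapped. Knockout arrays lay wholly under WT LIC arrays for 16.6% of all genes. The median difference was -0.38 over the members and -0.05 over all genes. This comparison and the one with LSK cells share the WT LIC arrays, so their signs are not independent.

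Lss was at 6.62 and 6.58 in Ezh2 KO LICs, against 7.72 to 8.09 in WT LICs. Both knockout arrays lay far under the WT LIC arrays and a little above the highest LSK array, 6.36. Lss fell by 1.34 (SE 0.20, 95% interval -1.81 to -0.88, adjusted p = 0.0351). The call was lost without LSK replicate 1 or 3 (adjusted p = 0.0773 and 0.0543), without WT LIC replicate 1 or 2 (0.127 and 0.124), and without Ezh2 KO LIC replicate 1 or 2 (0.127 and 0.195), and also under a trended robust prior (0.101) and with the compared groups alone (0.0898), while the difference stayed between -1.45 and -1.27 with any 1 array left out.

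Sqle, the neighbour of Lss in the chain, was at 8.40 and 8.30 in Ezh2 KO LICs, under all WT LIC arrays and within the range of the LSK arrays. Its difference of -0.79 (SE 0.19, 95% interval -1.24 to -0.34) did not pass (adjusted p = 0.179). Fdps was at 9.24 and 8.55, so the knockout arrays disagreed: replicate 1 lay between the other groups and replicate 2 among the LSK arrays. The difference was -0.78 (SE 0.22, 95% interval -1.30 to -0.26, adjusted p = 0.255), and it was -0.43 without replicate 2.

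The remaining members had differences whose intervals included 0. Idi1 was at 10.44 and 10.35 (difference -0.42, 95% interval -0.97 to 0.13), and Fdft1 at 8.61 and 8.25 (-0.33, interval -0.75 to 0.08). Msmo1 was at 8.26 and 8.13 (-0.32, interval -0.82 to 0.17), and Hmgcs1 at 11.85 and 11.79 (-0.18, interval -0.50 to 0.14). Each of these 4 was a little lower on both knockout arrays than on any WT LIC array. Cyp51 was at 9.22 and 9.81, and its difference was 0.25 (interval -0.31 to 0.82). The adjusted p of these 5 genes ranged from 0.529 to 0.73.

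B cell genes moved with loss of Ezh2. Of 7 on the list, 6 were measured, Cd79a and Igll1 rose and none fell. Their summed intensity was 432 to 864 in WT LICs and 4038 to 6839 in Ezh2 KO LICs, with Pax5 at background in each group. Dividing-cell genes overlapped between the genotypes, at 14104 to 20486 in Ezh2 KO LICs, and none of the 11 was called. The part of B cell RNA in the sterol differences was not tested.

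**Figure D2:**
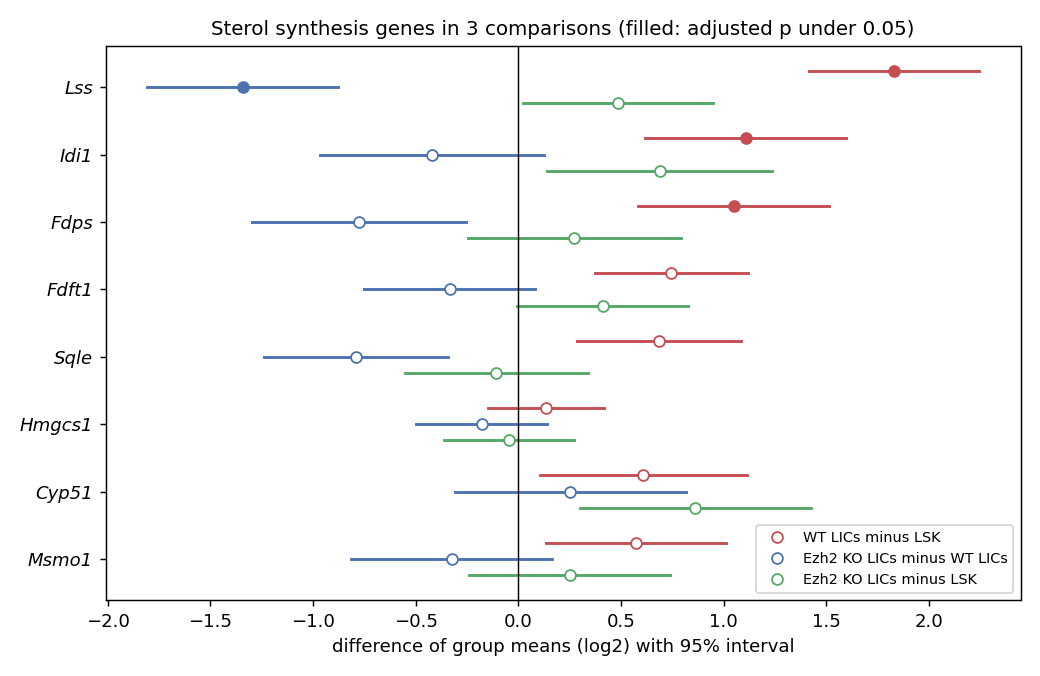
Differences of group means (log2, x axis) for the 8 members in 3 comparisons, with 95% intervals; filled points passed at an adjusted p under 0.05. Filled points are Lss, Idi1 and Fdps for WT LICs against LSK cells and Lss alone for Ezh2 KO against WT LICs.

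Against LSK cells, Ezh2 KO LICs stood between the other groups for most members. None of the 8 passed in limma, and 3 were higher at an unadjusted p under 0.05 (Cyp51, Idi1 and Lss). Of all genes, 1.61% were called higher and 1.86% lower in this comparison, and 8.84% were higher and 10.4% lower at an unadjusted p under 0.05. Among the called genes 46.5% were higher, or 59.8% after median centring. Both knockout arrays lay above all LSK arrays for Lss, Idi1, Fdft1 and Cyp51, as they did for 18.2% of all genes. Cyp51 had the largest difference of the 8, 0.86 (SE 0.24, 95% interval 0.30 to 1.43, adjusted p = 0.102). Idi1 differed by 0.69 (interval 0.14 to 1.23), Lss by 0.49 (interval 0.02 to 0.95) and Fdft1 by 0.41 (interval -0.01 to 0.83). For Sqle the difference was -0.11 (interval -0.55 to 0.34) and for Hmgcs1 -0.05 (interval -0.36 to 0.27), the only members with a mean under that of LSK cells. The dimmer probe sets of Hmgcs1 went the other way, by 0.23, 0.21 and 0.67.

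Markers moved with this comparison too. Against LSK cells, Cd79a, Vpreb1 and Igll1 of the 6 measured B cell genes rose in Ezh2 KO LICs, with summed intensities of 818 to 1141 in LSK cells and 4038 to 6839 in the knockout. Plk1 and Nuf2 of the 11 measured dividing-cell genes rose, with sums of 9453 to 10156 and 14104 to 20486. Kit fell among the 5 measured progenitor genes (7927 to 9422 in the knockout), Lyz2 among the 6 monocyte and macrophage genes (1511 to 1859), Pf4 among the 6 megakaryocyte genes (427 to 484), and Jchain and Igk among the 6 antibody-secreting genes (1421 to 1892). No gene of these lists was called in the other direction. Their part in the sterol differences was not tested.

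The order of the group means was WT LICs, Ezh2 KO LICs, LSK cells for Lss, Idi1, Fdps, Fdft1 and Msmo1. The lower pair of groups overlapped for Fdps and Msmo1. The order was WT LICs, LSK cells, Ezh2 KO LICs for Sqle and Hmgcs1, where the 2 lower groups overlapped. By its dimmer probe sets, Hmgcs1 was higher in Ezh2 KO LICs than in LSK cells. For Cyp51 the order was Ezh2 KO LICs, WT LICs, LSK cells, and the 2 LIC groups overlapped. Set against the LSK mean of each gene, the median of the 8 members was 0.69, 0.87 and 0.76 on the WT LIC arrays and 0.54 and 0.21 on the Ezh2 KO arrays. The LSK arrays lay between -0.03 and 0.03. The WT LIC arrays were close to each other, replicate 3 included, and the knockout arrays were not.

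The probe sets of a member did not always move alike. Of the 20 probe sets, 3 were under background on all 8 arrays, 1 of Fdps and 2 of Fdft1, background being the highest mean of the unspiked bacterial controls, 4.01. The other 17 had means above it. Of these 17, 16 had a higher mean in WT LICs than LSK cells had, with no overlap for 12, and 13 had a lower mean in Ezh2 KO than in WT LICs, with no overlap for 9. Over all genes, each by its brightest probe set, 13.5% and 16.6% had no overlap in these directions. Probe sets of a gene report on the same samples, so these counts add no separate support.

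Lss was the clearest case of disagreement. Its second probe set differed by 1.44 between WT LICs and LSK cells and by -1.04 between Ezh2 KO and WT LICs, close to the brightest. The dimmest, at 5.76, 4.55 and 6.07 in LSK cells and 5.64, 6.38 and 3.93 in WT LICs, differed by -0.14 (SE 0.66) and by -0.71 (SE 0.73). That probe set had the widest spread of the 3. With the mean of all 3, Lss differed by 1.04 between WT LICs and LSK cells (adjusted p = 0.105). Between Ezh2 KO and WT LICs that mean differed by -1.03 (adjusted p = 0.315). With all probe sets as separate features in limma, the second probe set passed between WT LICs and LSK cells (adjusted p = 0.00909). Between Ezh2 KO and WT LICs it did not pass (adjusted p = 0.0933), while the brightest did (adjusted p = 0.0448). The call against LSK cells thus rests on the brighter pair, and the call between the LIC groups on the brightest probe set alone. The name of that brightest probe set ends in s_at, Affymetrix's mark for probes shared by several transcripts, and the names of the other 2 do not.

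For Fdft1, the brightest probe set carries a name ending in x, Affymetrix's mark for probes that may also bind other transcripts. The other bright probe set of Fdft1, without that mark, was at 7.56, 7.60 and 7.42 in LSK cells, 8.38, 8.18 and 8.49 in WT LICs and 7.79 and 7.48 in Ezh2 KO LICs. It differed by 0.83 (SE 0.16, adjusted p = 0.0423 over all 20380 probe sets) between WT LICs and LSK cells, and by -0.72 (SE 0.17, adjusted p = 0.208) between Ezh2 KO and WT LICs. Both Idi1 probe sets were higher in WT LICs, by 1.11 and 1.20, but the dimmer one overlapped between the LIC groups (difference -0.13). The 4 probe sets of Hmgcs1 differed by 0.13, 0.31, 0.32 and 0.41 between WT LICs and LSK cells, the brightest by the least. Between Ezh2 KO LICs and LSK cells they differed, in the same order, by -0.05, 0.23, 0.21 and 0.67, and none passed. Of the 3 probe sets of Cyp51, the brighter 2 differed by 0.61 and 0.94, and the dimmest lay near background.

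**Figure D3:**
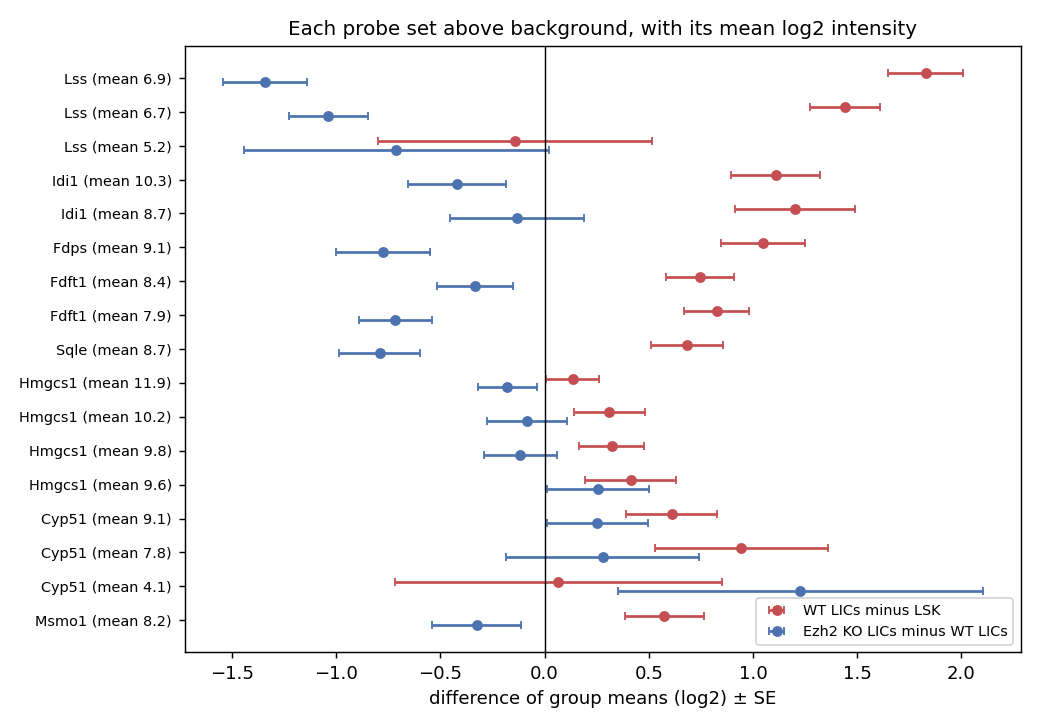
Differences of group means (log2, with SE) for each of the 17 member probe sets above background, labelled by gene and mean log2 intensity. The dimmest Lss probe set departs from the brighter pair, while both bright Fdft1 probe sets and both Idi1 probe sets lie above 0 for WT LICs minus LSK.

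Of 13 other enzymes of the chain listed, 10 were measured. Mvd, which makes the first isoprenoid building block just before Idi1, rose in WT LICs and none fell. It was at 5.71, 5.83 and 6.08 in LSK cells, 7.14, 7.73 and 7.86 in WT LICs and 7.28 and 7.07 in Ezh2 KO LICs. All LIC arrays of both genotypes lay above all LSK arrays. Mvd rose 1.70 in WT LICs (SE 0.22, adjusted p = 0.0109) and kept its call under each alternative. It rose 1.30 in Ezh2 KO LICs against LSK cells (SE 0.24, adjusted p = 0.0367), a call lost without LSK replicate 1, 2 or 3 (0.0952, 0.0912 and 0.0668), without WT LIC replicate 2 (0.0591) without Ezh2 KO replicate 1 or 2 (0.168 and 0.125) and under a trended robust prior (0.0559). Between the LIC groups its difference was -0.40 (adjusted p = 0.586).

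The other 9 did not pass in any comparison. Nsdhl, which works beside Msmo1 in demethylation, differed by 0.68 between WT LICs and LSK cells (adjusted p = 0.162), and the sterol isomerase gene Ebp by 0.47 (adjusted p = 0.13). The median over the 10 was 0.56 between WT LICs and LSK cells, against 0.02 over all genes, and -0.24 between Ezh2 KO and WT LICs, where none of the 10 was called in limma and none had an unadjusted p under 0.05. Lbr, a sterol reductase gene that also encodes a nuclear envelope protein, had the smallest p among them there (difference 0.30, adjusted p = 0.497).

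**Figure D4:**
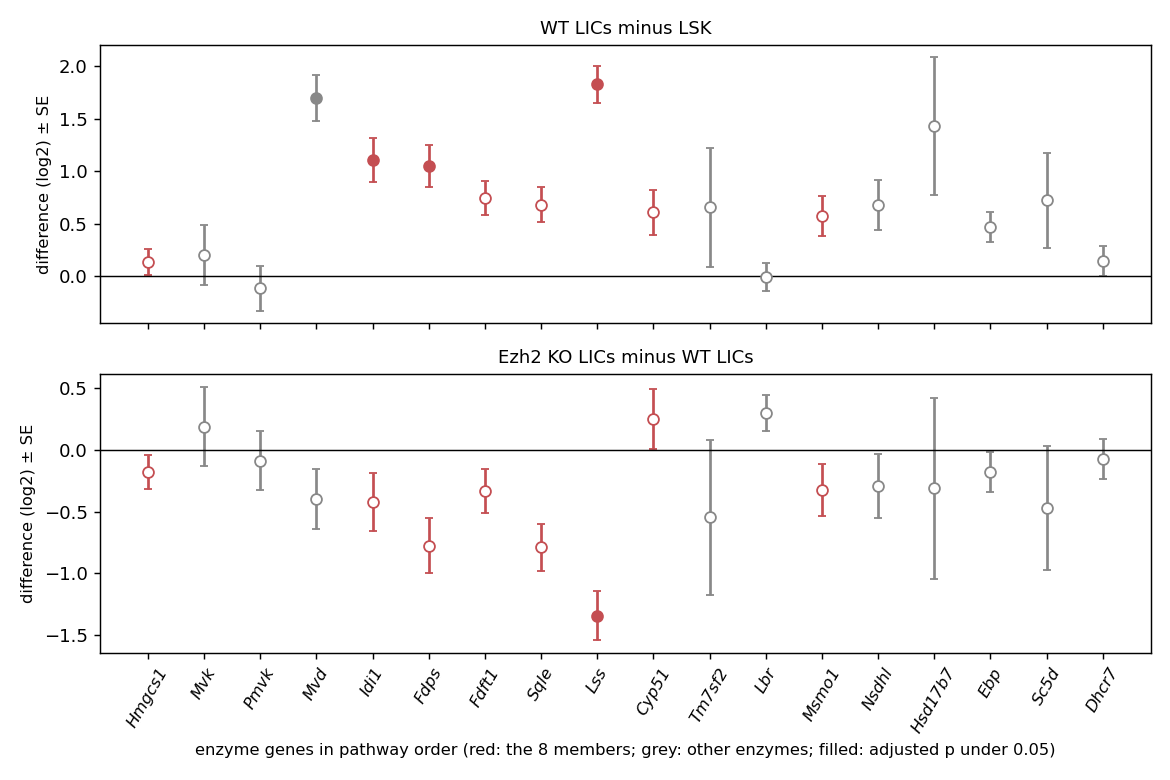
Difference of group means (log2, with SE) for the 18 measured enzyme genes in pathway order, for WT LICs against LSK cells (upper panel) and Ezh2 KO against WT LICs (lower panel); red marks the 8 members and filled points passed. The middle of the chain, Mvd to Lss, lies between 0.68 and 1.83 in the upper panel, and Lss is the filled point in the lower one. Later in the chain, Hsd17b7 and Sc5d also lie in that range (1.43 and 0.72), with larger SE (0.66 and 0.45), and did not pass.

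Of 11 genes of the SREBP control system listed, 6 were measured and none was called in any comparison (limma). Srebf2, which encodes SREBP2, was at 10.78, 10.86 and 10.62 in LSK cells, 9.74, 10.29 and 10.45 in WT LICs and 10.21 and 10.50 in Ezh2 KO LICs. Its RNA was lower on every LIC array than on any LSK array, a difference of -0.59 in WT LICs (SE 0.21, adjusted p = 0.171), and it was the 1 gene of the 6 with an unadjusted p under 0.05 there. Srebf1, which encodes SREBP1, differed by 0.34 and Scap, the escort protein of SREBP, by 0.35 (adjusted p = 0.324 and 0.322). In both comparisons that involve the knockout, none of the 6 had an unadjusted p under 0.05. These are levels of RNA and say nothing of SREBP cleavage.

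Of 8 genes listed as liver X receptor targets or export genes, 7 were measured, and in WT LICs against LSK cells Apoe, Mylip and Abca1 fell, none rose and the other 4 did not pass. Of all genes, 2.15% were called lower there. The median over the 7 was -0.39, against 0.02 over all genes. Ch25h, counted among the 7, was at or under background on all 8 arrays. Lpcat3, which remodels membrane phospholipids, went the other way without passing: its WT LIC arrays, 8.07 to 8.38, lay above its LSK arrays, 7.38 to 7.78 (difference 0.67, SE 0.17, adjusted p = 0.0782). Between Ezh2 KO and WT LICs none of the 7 was called in limma, and 3 were higher at an unadjusted p under 0.05 (Mylip, Apoe and Abca1). Apoe, an apolipoprotein that accepts exported sterol, was at 8.48, 8.11 and 8.25 in LSK cells, 5.52, 4.99 and 5.12 in WT LICs and 5.82 and 5.84 in Ezh2 KO LICs. It fell by 3.07 in WT LICs (SE 0.18, adjusted p = 0.000402), 8.41-fold, and had a difference of -2.45 in Ezh2 KO LICs from LSK cells (SE 0.20, adjusted p = 0.00229). The LIC arrays of both genotypes were far under all LSK arrays.

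Mylip, which encodes the ligase that degrades the LDL receptor, was at 7.61, 7.69 and 7.74 in LSK cells, 5.71, 6.02 and 6.23 in WT LICs and 6.88 and 7.03 in Ezh2 KO LICs. It fell by 1.69 in WT LICs (SE 0.16, adjusted p = 0.00369). Its knockout arrays lay between the other groups without overlap, 0.97 above WT LICs (SE 0.18, adjusted p = 0.0929) with a difference of -0.72 from LSK cells (adjusted p = 0.0795). Apoe and Mylip each had 1 probe set, and their falls in WT LICs kept the call under each alternative.

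Abca1, the cholesterol exporter, was at 8.31, 8.46 and 8.97 in LSK cells, 6.26, 6.28 and 5.73 in WT LICs and 6.55 and 7.22 in Ezh2 KO LICs. It fell by 2.49 in WT LICs (SE 0.27, adjusted p = 0.00557). Against LSK cells it fell by 1.69 in Ezh2 KO LICs (adjusted p = 0.0306), a call lost without LSK replicate 1, 2 or 3 (0.0569, 0.0679 and 0.0703), WT LIC replicate 1 (0.0544) or 2 (just above 0.05) or Ezh2 KO replicate 1 or 2 (0.147 and 0.0633), and with the compared groups alone (0.0552). The other 2 Abca1 probe sets had means under background, and with the mean of all 3 the fall in WT LICs was no longer called (difference -0.50, adjusted p = 0.118). Apoe and Abca1 are also made by macrophages, and monocyte and macrophage genes moved with the comparison of WT LICs and LSK cells. Of 6 on that list, all measured, Lyz2 fell and none rose. They had a summed intensity of 4031 to 4306 in LSK cells, 1051 to 2303 in WT LICs and 1511 to 1859 in Ezh2 KO LICs, and Cd14 was under background in WT LICs. Their part in the falls of Apoe and Abca1 was not tested.

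**Figure D5:**
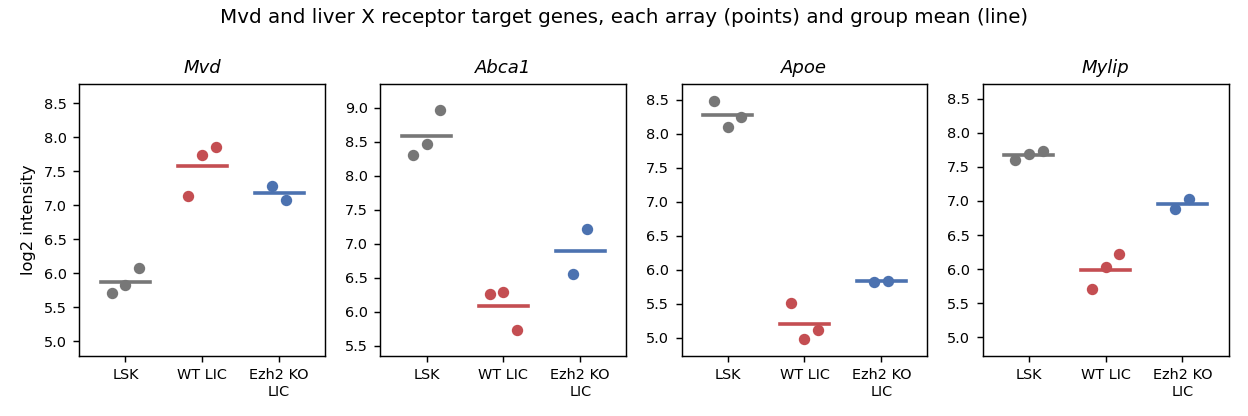
Log2 intensity of Mvd and of the liver X receptor targets Abca1, Apoe and Mylip on each array, with points for arrays and lines for group means; every panel spans 4.0 log2 units. Mvd is higher on all LIC arrays than on the LSK arrays, the 3 targets are lower, and Mylip in Ezh2 KO LICs lies between the other groups.

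Uptake and transport genes were mixed. Of 12 listed, 9 were measured and 1 was called: Gramd1a, a carrier of cholesterol from the plasma membrane to the endoplasmic reticulum. It was at 9.12, 9.54 and 9.32 in LSK cells, 8.04, 8.22 and 8.71 in WT LICs and 7.67 and 7.85 in Ezh2 KO LICs. It fell by 1.57 in Ezh2 KO LICs against LSK cells (adjusted p = 0.0202), a call lost without LSK replicate 2 or 3 (0.0510 and 0.0538) or Ezh2 KO replicate 1 or 2 (0.102 and 0.0824). In WT LICs it fell by 1.00 with an adjusted p of 0.0496, at the edge of the threshold. That call was lost without any 1 array except WT LIC replicate 3 (adjusted p = 0.0775 to 0.143) and after median centring or quantile normalization of the arrays (0.0704 and 0.0507), with the compared groups alone (0.0775) and with all probe sets as separate features (0.0582). The lipoprotein receptor genes Scarb1 and Lrp8 differed by 0.74 and 0.98 between WT LICs and LSK cells and did not pass (adjusted p = 0.0839 and 0.0964). Vldlr, another lipoprotein receptor gene, went the other way with overlapping arrays (difference -1.83, SE 0.64, adjusted p = 0.169). Npc1 was lower without overlap (-0.65, SE 0.18, adjusted p = 0.0981). At an unadjusted p under 0.05, 2 of the 9 were higher and 3 lower there, against 9.33% and 11.2% of all genes. For Ezh2 KO LICs against LSK cells 1 was higher and 4 lower, against 8.84% and 10.4%.

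Branches next to the sterol chain showed no called gene in limma. Of 15 genes of isoprenoid use, which spend farnesyl and geranylgeranyl groups on proteins, dolichol and ubiquinone, 11 were measured. None was called in any comparison, and 1, 0 and 2 had an unadjusted p under 0.05 for WT LICs against LSK cells, Ezh2 KO against WT LICs and Ezh2 KO LICs against LSK cells. Chm, Fntb and Fnta had the smallest p for WT LICs against LSK cells, with differences of -0.67, 0.63 and -0.31. Of 16 fatty acid synthesis genes, 15 were measured and none was called, with 0, 1 and 3 at an unadjusted p under 0.05. Over all genes, 1.27% were called higher and 2.15% lower for WT LICs against LSK cells, so no call in lists this short says little. These shares were 0.589% and 0.0484% for Ezh2 KO against WT LICs, and 1.61% and 1.86% for Ezh2 KO LICs against LSK cells. At an unadjusted p under 0.05 the shares higher and lower were, in turn, 9.33% and 11.2%, 6.16% and 4.97%, and 8.84% and 10.4%. Fasn, the fatty acid synthase gene, differed by 0.24 between WT LICs and LSK cells (SE 0.15, adjusted p = 0.397). The median over the 15 was 0.05 in that comparison, against 0.02 over all genes.

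In both knockout comparisons, Me1, Fads1 and Scd1 had the smallest p of the fatty acid genes, and none passed. Me1, malic enzyme, which supplies NADPH for lipid synthesis, was at 6.06 and 7.61 there, against 4.13 to 5.45 in WT LICs (difference 1.98, SE 0.51, adjusted p = 0.206). Scd1, the stearoyl-CoA desaturase gene, was at 8.54 and 9.17 in Ezh2 KO LICs. It was at 8.04, 7.97 and 4.92 in WT LICs, with replicate 3 far under the others (difference 1.88, SE 0.97, adjusted p = 0.521). From LSK cells, Me1 differed by 2.26 (SE 0.51, adjusted p = 0.0602) and Scd1 by 2.94 (SE 0.97, adjusted p = 0.152). Fads1, a fatty acid desaturase gene, went the other way, at 8.47 and 8.80 in Ezh2 KO LICs, 9.21, 9.50 and 8.70 in WT LICs and 9.27 to 9.34 in LSK cells. Its difference was -0.51 from WT LICs (SE 0.24, adjusted p = 0.49) and -0.67 from LSK cells (SE 0.24, adjusted p = 0.189).

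Outside the pathway lists, the genes whose levels over the 8 arrays were most like the mean profile of the members were Eif2b1, Tubb4b, Ifrd2, Tbl3 and Ccdc115, with Pearson's r of 0.98, 0.97, 0.96, 0.96 and 0.96 among 6145 genes brighter than the median gene. The 8 arrays form 3 groups, so arrays of a group share their place in the profile, and no test is given. Between WT LICs and LSK cells, Eif2b1, a subunit of a translation initiation factor, differed by 0.88 and Tubb4b, a tubulin, by 0.63. Among the members, the likeness of each to the mean of the other 7 ran from 0.95 for Lss and 0.92 for Fdps down to 0.62 for Hmgcs1 and 0.41 for Cyp51.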

How the data were processed

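Total RNA of sorted cells was amplified, labelled with biotin and hybridised to 8 arrays, per the labels' protocols. The authors deposited 1 linear intensity per probe set and array (22690 probe sets, 1.94 to 19343.1), and RMA is the tool listed in the submitters' processing notes. After sorting, the log2 values at a given rank had an SD of 0.08 or less across arrays, so their distributions were nearly equal. Log2 was taken with no pseudocount. The design had assumed deposited log2 values, and the test is unchanged.

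Control probe sets (64), those with several symbols (691) and those not listed in the platform annotation (1555) were left out. Of 20380 with 1 symbol, 20351 matched RefSeq gene numbers (GRCm38.p6). Each gene was taken by its brightest probe set, with no filter on dim genes. A joint limma 3.58.1 fit (R 4.3.3) held all 3 groups, with group as its single term, leaving 5 residual degrees of freedom. A gene was called, in 2-sided tests, at a Benjamini-Hochberg adjusted p under 0.05 over 12393 genes. The fit was tested on simulated data. No exact permutation test was run: the smallest p it allows here, with 3 or 2 arrays set against 3, is 0.1.

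The members, the lists and the naming rule (all members, every called gene of another list, otherwise up to 3 with the smallest p) were chosen with earlier results of these data known. Of the marker lists, called genes were named beside the comparisons they move with. Alternatives covered scaling, dim genes, the variance prior, array weights, probe set rules, a size threshold, the arrays fitted and leaving out each array. Precision is limited by how few arrays there are: the median SE of a difference was 0.21 for WT LICs against LSK cells and 0.23 for comparisons with Ezh2 KO LICs. The p-values set a difference of group means against the spread between samples within groups, moderated over all genes. Whether repeats came from separate animals is not given beyond the word biological, so that spread need not be the spread between animals. Plots were drawn with matplotlib 3.10.9.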

Additional observations from a re-analysis of the deposited data

How the results depend on the processing

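Of the 24 differences of the 8 members in 3 comparisons, 21 kept their direction under each of 20 alternatives, and of the 4 called, none kept its call under each. Several alternatives can change a call but not a difference, so no direction could turn under them. Among these are the variance prior, the size threshold, leaving out dim genes and dropping an array of a group not compared. The exceptions in direction were Cyp51 for Ezh2 KO against WT LICs, -0.042 without Ezh2 KO LIC replicate 2 and 0.55 without replicate 1, Fdps for Ezh2 KO LICs against LSK cells, -0.069 without Ezh2 KO LIC replicate 1 and 0.62 without replicate 2, and Hmgcs1 for Ezh2 KO LICs against LSK cells, 0.043 after median centring and 0.26 with the mean of all its probe sets or of those above background, an alternative chosen after seeing the data. Abca1, outside the members, turned to -0.47 for Ezh2 KO against WT LICs with the mean of all its probe sets. For WT LICs against LSK cells, 3 members were called, 4 with dim genes left out, median centring, quantile normalization or array weights, 2 with the compared groups alone or the mean of all probe sets, and 1 to 2 with any 1 array left out, while 424 genes in all were called, 917 with array weights and 176 to 643 with any 1 array left out, the highest without WT LIC replicate 3. For Ezh2 KO against WT LICs, 1 member was called, 0 under a trended robust prior, with the compared groups alone, or with the mean of all probe sets or of member probe sets above background, and 0 to 1 with any 1 array left out. There 79 genes were called in all, 32 with dim genes left out, 119 with array weights, 35 with the compared groups alone and 25 to 146 with any 1 array left out. For Ezh2 KO LICs against LSK cells 430 genes were called, and 118 to 643 with any 1 array left out. The cause was not tested. Median centring moved the median difference of all genes between WT LICs and LSK cells from 0.02 to 0.13 and raised the upward share of the called genes from 37.0% to 54.2%, or, for Ezh2 KO LICs against LSK cells, from 46.5% to 59.8%.

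The sources used here do not say whether the repeat numbers of the titles pair the arrays. Same-numbered arrays of different groups deviated from their group means together with a correlation of -0.05 to 0.14, over 0.1 in 1 of 7 pairs. That pair was replicate 1 of the WT LICs and of the Ezh2 KO LICs. The 2 knockout arrays deviate from their mean in equal and opposite ways, so these values cannot settle whether the repeat number pairs arrays. With the number as a replicate block, 252, 36 and 147 genes were called for WT LICs against LSK cells, Ezh2 KO against WT LICs and Ezh2 KO LICs against LSK cells, and 1, 0 and 0 members. The block ended the calls of Idi1 (adjusted p = 0.0703), Fdps (0.0668) and Gramd1a (0.0680) for WT LICs against LSK cells, of Lss (0.159) between the LIC groups, and of Mvd (0.0625), Abca1 (0.0911) and Gramd1a (0.0554) for Ezh2 KO LICs against LSK cells. Ezh2 itself kept its call between the LIC groups except with the compared groups alone (0.0550).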
